A study of Mus musculus with 12 samples.

Results

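The interleukin 1 family genes examined here are Il1a, Il1b, Il18, Il33, Il1rn, Il1r1, Il1rap and Il1r2, which are 8 of 21887 protein-coding mouse genes. A peak was counted for a gene when it lay in the gene body or within 20 kb of it (GRCm38 coordinates, RefSeq gene bodies), or when the deposited gene column named the gene. Binding of FRA-1, the AP-1 subunit encoded by Fosl1, had been mapped by ChIP-seq, in which the DNA fragments that an antibody pulls down are sequenced and a peak marks a stretch where they pile up. Peritoneal macrophages of 8-week-old mice were compared in 3 conditions with 3 replicates each, namely unstimulated, stimulated with LPS, a component of the wall of Gram-negative bacteria, or given apoptotic cells at a ratio of 1:5. Stimulation lasted 1 h. The sample records describe cells elicited with thioglycollate over 72 h, plated overnight and kept as adherent cells, from mice on a 129/C57Bl6 background, and an LPS concentration of 1 µg/mL. The series' design text instead gives plain lavage, C57Bl/6 mice and 10 µg/mL LPS, and the files do not settle which holds. Mice of either sex were used, and the labels name no deletion or transgene in any of the 3 conditions. Replicates are numbered by their order in each table, because no column names a mouse.

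Each peak carries a score that reads as a Phred-scaled p-value, so that a higher score means a less likely pile-up under the background. The lowest score listed was 50.01, and without read counts in the tables the depth of each library is unknown. The 9 replicates held between 20957 and 79384 peaks. Their narrowest peaks formed 2 classes, one of 104 to 116 bp in unstimulated replicate 3, LPS replicates 1 and 3 and apoptotic cell replicate 3 (called narrow here), and one of 158 to 172 bp in the other 5 (called wide). LPS replicates 1 and 3 shared 24.2% of their merged peaks, whereas LPS replicate 2 shared 5.63% and 5.10% with them. Peaks are no measure of expression, so that the labelled cell type could not be checked by marker levels. Of the macrophage genes Adgre1, Csf1r, Cd68, Itgam and Spi1, 2 of 5 had a region in at least 2 LPS and 0 unstimulated replicates, as did 1 of 4 genes of other peritoneal cells and 34.0% of all genes, so that these counts say nothing of cell identity.

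Interleukin 1 is among the earliest cytokines that macrophages release after contact with bacterial products. IL-1α and IL-1β bind the receptor IL1R1, which signals together with the accessory protein IL1RAP through MyD88 and IRAK kinases to NF-κB and AP-1. IL-1RA, the product of Il1rn, occupies the same receptor without signalling, and IL1R2 is a decoy that binds the cytokine and does not signal. IL-18 and IL-33 are related cytokines with receptors of their own. AP-1 dimers bind the palindrome TGANTCA.

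The promoters of the family are shown where the letters bear on AP-1 or on a peak. RefSeq (GRCm38.p6) lists 12 start sites for the 8 genes, and the window searched ran from 250 bases before to 50 bases after each start, on both strands. TGANTCA occurred in 2 of these 12 windows and in 7.81% of all 32851 listed promoters. The windows were those of Il1rn, at bases -141 to -135 from the start, and of Il1a, at bases -12 to -6. The cyclic AMP response element TGACGTCA (1.79% of promoters), an NF-κB-like motif (1.47%) and GAGGAAGT for PU.1-like sites (3.20%) occurred in 0 of the 12. TTGCNNAA, a C/EBP-like motif found in 10.8% of promoters, occurred in 2 of 12, those of Il1r1 and of the second start of Il33. The stretch upstream of Il1rn spans chr2:24336610-24336859 on the plus strand and that of Il1a chr2:129309973-129310002 on the minus strand, with the AP-1 motif in capitals. The stretch of Il33 spans chr19:29945760-29945789 on the plus strand, just before the second start, and its capitals are the 27 bases covered by a FRA-1 peak of unstimulated replicate 2.
Il1rn: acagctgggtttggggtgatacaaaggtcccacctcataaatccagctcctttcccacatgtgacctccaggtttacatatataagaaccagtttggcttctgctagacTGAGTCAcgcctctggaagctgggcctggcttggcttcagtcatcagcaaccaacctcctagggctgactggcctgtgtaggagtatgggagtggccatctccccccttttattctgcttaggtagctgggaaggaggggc
Il1a: taaaaaggcagagaagccTGACTCAgactt
Il33: ataTAAATAGAACTGAAGCGCGACTGTGTT
The peak over the Il33 stretch was the only one of all member peaks that overlapped any of the 12 windows. No FRA-1 peak overlapped the promoter windows of Il1rn or Il1a that hold the AP-1 motif.

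Il1b was the member with a FRA-1 region in every replicate of every condition. Il1rn, Il1r1 and Il1rap had a region in 2 LPS replicates and in no unstimulated or apoptotic cell replicate. Il1a, Il18, Il33 and Il1r2 had peaks in 3 to 7 of the 9 replicates, but at no position in more than 1 of them. In all, the 8 genes held 92 peaks that merged into 80 regions. Of these regions, 75 (93.75%) had a peak in 1 replicate, 4 in 2 replicates and 1 in all 9. Across the genome, 89.7% of 300195 regions had a peak in 1 replicate and 0.456% in all 9.

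**Figure D1:**
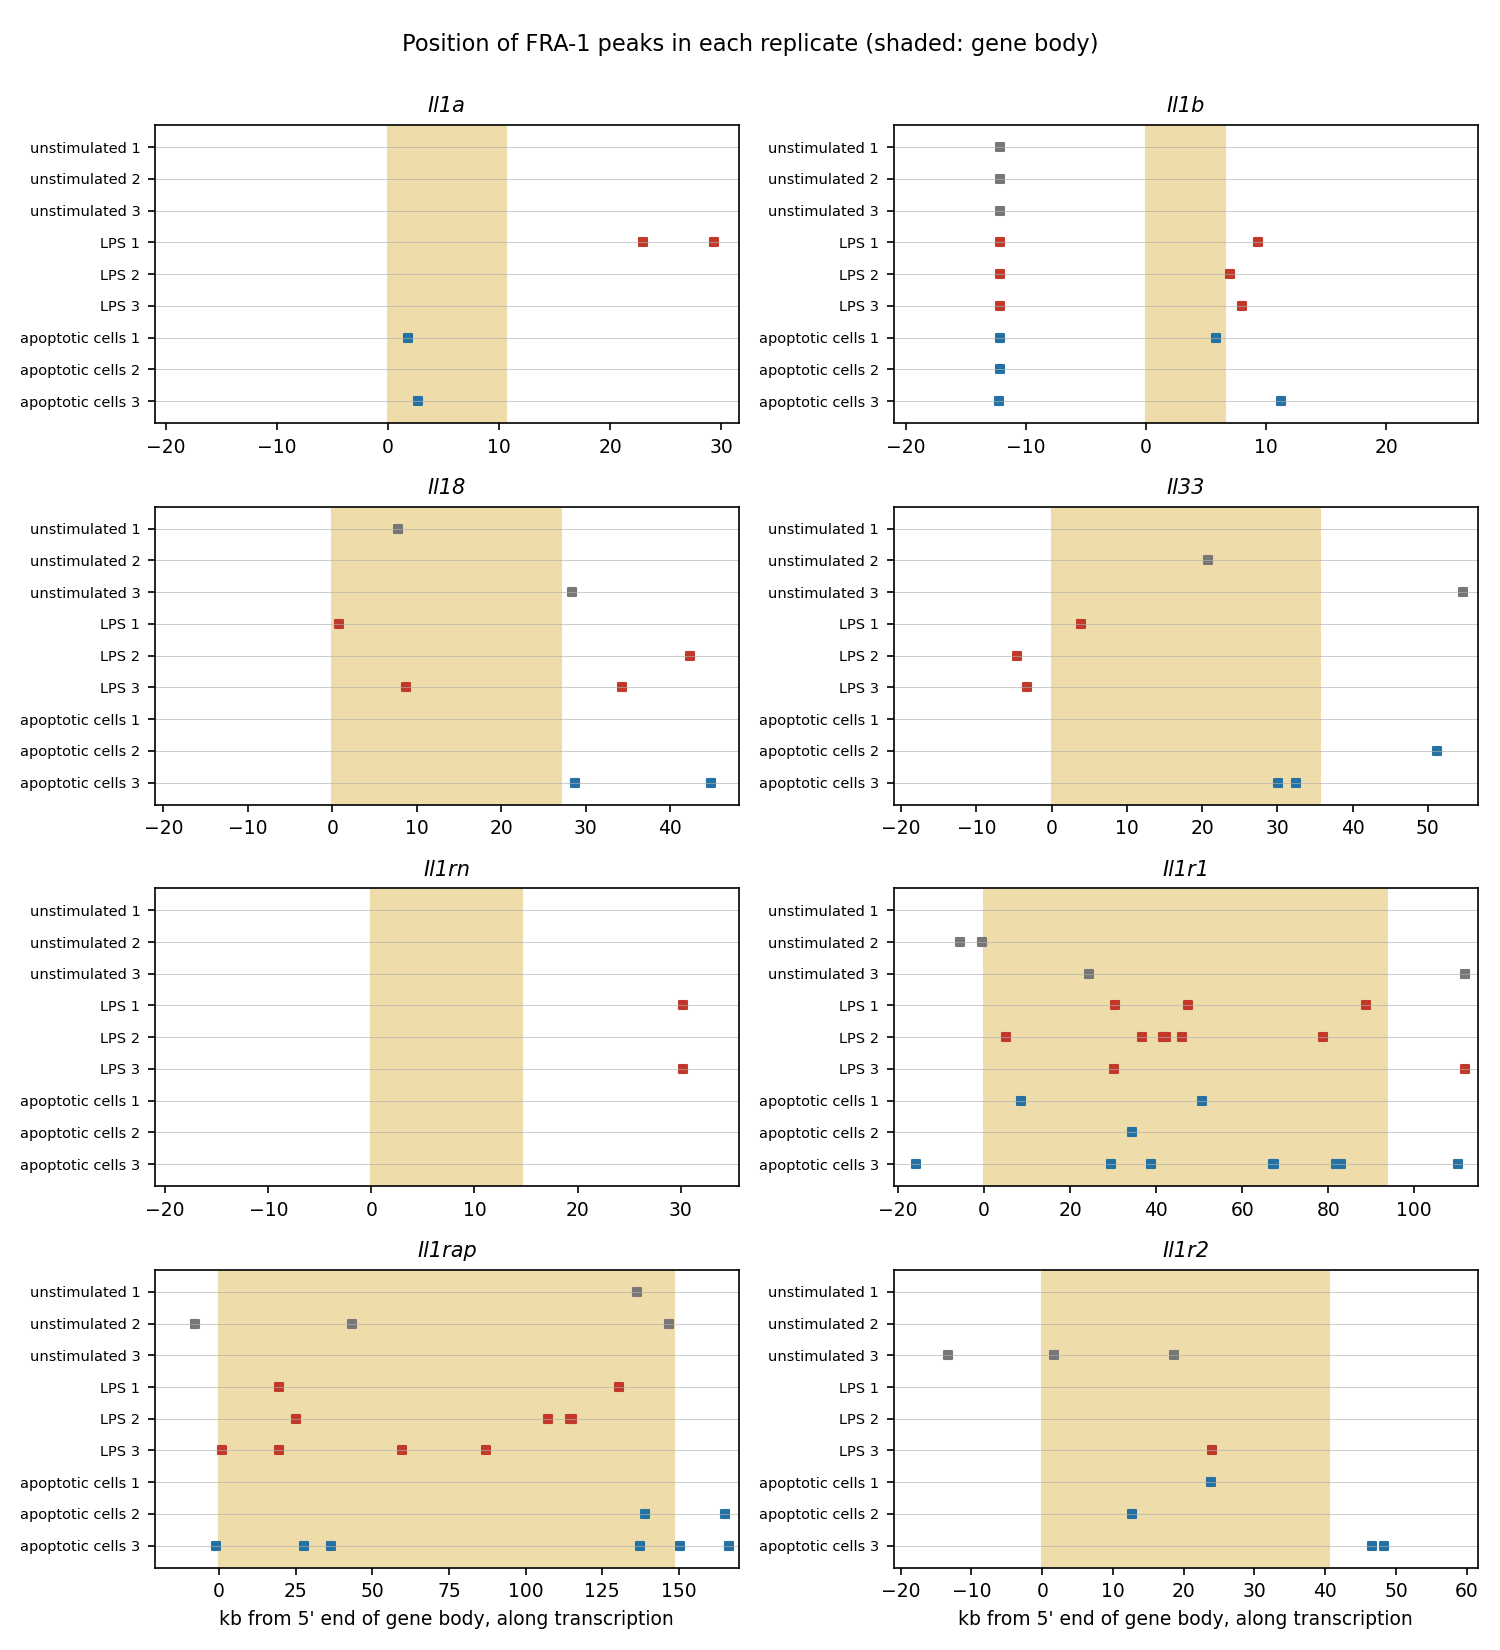
Position of each FRA-1 peak around the 8 interleukin 1 family genes, in kb from the 5′ end of the gene body along the direction of transcription (x axis), for each of the 9 replicates (rows; grey unstimulated, red LPS, blue apoptotic cells), with the gene body shaded. The column of 9 squares 12 kb before Il1b is the region shared by all replicates, while 75 of the 80 regions are single squares.

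Il1b encodes IL-1β, which is made as an inactive precursor and cleaved by caspase-1. The gene lies at chr2:129364569-129371164 on the minus strand. Its shared region spans chr2:129383195-129383414, is 220 bp long and lies at bases -12275 to -12056 from the listed start, outside any listed gene. The nearest other gene, the pseudogene Spcs2-ps, lies 3799 bp away, and the nearest other protein-coding gene is Il1a at 73009 bp. The 9 peaks have 105 bp in common, from 129383304 to 129383408. The deposited gene column names no gene for this region.

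In unstimulated macrophages the region scored 132.03, 185.51 and 351.9 in replicates 1 to 3. After LPS it scored 376.8, 118.02 and 333.66, and with apoptotic cells 120.65, 124.89 and 171.01. The unstimulated and LPS scores overlapped, and the single lowest score of these 9 was that of LPS replicate 2. Within each replicate, these scores ranked at the 47.0th, 78.8th and 96.8th percentile of all peaks without stimulation, at the 96.7th, 40.7th and 87.5th after LPS, and at the 43.8th, 37.5th and 88.9th with apoptotic cells. FRA-1 was listed at this region without stimulation as well.

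Scores are not normalised between replicates, so each was also divided by the replicate's median over the 1370 regions with a peak in all 9. The scaled scores were 0.717, 0.843 and 1.03 in unstimulated macrophages, 0.977, 0.568 and 0.836 after LPS, and 0.403, 0.475 and 0.701 with apoptotic cells. Every apoptotic cell replicate lay below every unstimulated replicate, by a margin of 0.701 against 0.717 at the closest, whereas the LPS values overlapped both other conditions. The means were 0.862 ± 0.156 without stimulation, 0.794 ± 0.208 after LPS and 0.526 ± 0.155 with apoptotic cells (SD, n = 3 each). Apoptotic cells against unstimulated gave p = 0.1 in a two-sided exact permutation test, the smallest possible with 3 values in each condition, and 0.40 after Benjamini-Hochberg adjustment over 6 tests. LPS against unstimulated gave p = 0.6 (exact permutation test). The scaling and these tests were chosen after the scores had been seen. Of the 1370 regions, 7.08% showed the same order of apoptotic cell below unstimulated replicates. As deposited, the scores averaged 223 ± 115, 276 ± 139 and 139 ± 27.9 in the 3 conditions (SD, n = 3 each), with p = 0.8 for LPS and p = 0.2 for apoptotic cells against unstimulated (exact permutation tests).

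**Figure D2:**
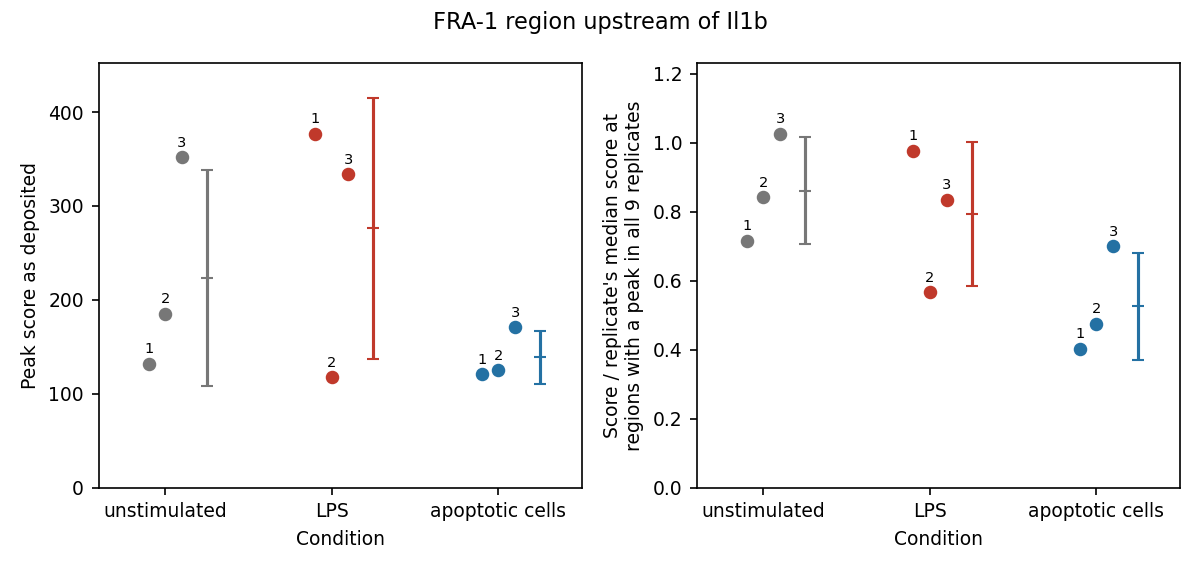
Score of the FRA-1 region upstream of Il1b in each replicate (points, numbered by replicate) with mean ± SD (bars), as deposited on the left and divided by the replicate's median at regions present in all 9 replicates on the right. On the right, apoptotic cell replicates (0.403 to 0.701) lie below unstimulated ones (0.717 to 1.03), while LPS replicates (0.568 to 0.977) overlap both. By rank among the same regions (not drawn), apoptotic cell and unstimulated replicates overlap.

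Besides this region, every LPS replicate had a further peak beyond the 3′ end of Il1b, at 3 different positions. These lay 2697, 344 and 1364 bp past the end, in replicates 1, 2 and 3, with scores of 157.48, 122.06 and 207.74. Apoptotic cell replicate 1 had a peak inside the gene (149.46) and replicate 3 a peak 4469 bp past its end (67.66). The unstimulated replicates had none. The number of peaks per replicate at Il1b was therefore 1, 1 and 1 without stimulation, 2, 2 and 2 after LPS, and 2, 1 and 2 with apoptotic cells. The LPS counts all exceeded the unstimulated counts (p = 0.1, adjusted p = 1.0 over 24 two-sided exact permutation tests), an order that 9.87% of all genes showed. Per 100 kb of window, Il1b had 30.05 peaks over the 9 replicates, and the other 7 genes had 3.66 to 19.4. Of the 14 peaks at Il1b, 9 were those of the shared region, counted once in each replicate. The density of Il1b therefore rests largely on that region.

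Il1a encodes IL-1α, which is active without cleavage and is released from damaged cells. It lies at chr2:129299609-129310186 on the minus strand. Its peaks numbered 0, 0 and 0 in unstimulated replicates, 2, 0 and 0 after LPS, and 1, 0 and 1 with apoptotic cells. The LPS peaks lay 12324 and 18642 bp past the 3′ end, and the apoptotic cell peaks lay inside the gene at 2 positions, with scores of 100.22 and 107.99.

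Il18 encodes interleukin 18, another substrate of caspase-1 that stimulates interferon-γ production by lymphocytes. It lies at chr9:50554700-50581841 on the plus strand. Its peaks numbered 1, 0 and 1 without stimulation, 1, 1 and 2 after LPS, and 0, 0 and 2 with apoptotic cells. The peak of LPS replicate 1, 796 to 924 bp after the start (score 105.39), was the nearest to the start. The highest score was 245.97, for a peak 7085 bp past the 3′ end in LPS replicate 3.

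Il33 encodes interleukin 33, a nuclear cytokine released on cell injury. It lies at chr19:29925113-29960718 on the plus strand. It had 0, 1 and 1 peaks without stimulation, 1, 1 and 1 after LPS, and 0, 1 and 2 with apoptotic cells, all at different positions. The peak of unstimulated replicate 2 over the second start (printed above) spanned bases -27 to 215 from that start and scored 196.68. The LPS peaks lay 4447 and 3224 bp before the gene in replicates 2 and 3 (126.89 and 136.35) and inside it in replicate 1 (136.64).

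Il1rn, the gene of the receptor antagonist, lies at chr2:24336860-24351491 on the plus strand and had the fewest peaks of the family, 1, 0 and 1 after LPS and 0 in the other 6 replicates. Both peaks formed the region chr2:24367051-24367164, with scores of 136.4 and 264.75 in LPS replicates 1 and 3 (49.9th and 74.1st percentile). The region began 15560 bp past the 3′ end of Il1rn and lay 394 bp from Psd4, so that the peak is much nearer to that neighbouring gene.

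Il1r1 encodes the signalling receptor. It lies at chr1:40222480-40316201 on the plus strand and had the most peaks, 0, 2 and 2 without stimulation, 3, 6 and 2 after LPS, and 2, 1 and 8 with apoptotic cells. LPS replicates 1 and 3 shared the region chr1:40252649-40252943 inside the gene, about 30 kb from its 5′ end, with scores of 131.8 and 130.57 (46.6th and 22.1st percentile). A second region past the 3′ end, chr1:40334124-40334246, was shared by unstimulated replicate 3 (244.1) and LPS replicate 3 (226.93) and lay inside the neighbouring receptor gene Il1rl2. The remaining peaks were each in 1 replicate. The pattern of peaks per replicate most like that of Il1r1, over the 9 replicates, was that of Disp1 (Pearson r 0.978), Olfr1393 (0.967) and Shisa6 (0.961), and all 9 values share the depth of their replicates.

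Il1rap encodes the accessory protein that IL1R1 and the IL-33 receptor both need to signal. It lies at chr16:26581509-26730128 on the plus strand, is the longest of the family at 148.62 kb, and had 1, 3 and 0 peaks without stimulation, 2, 4 and 4 after LPS, and 0, 2 and 6 with apoptotic cells. LPS replicates 1 and 3 shared the region chr16:26600981-26601092 inside the gene, with scores of 136.4 and 226.47 (49.9th and 64.2nd percentile). LPS replicate 3 also had a peak 594 to 705 bp after the start (226.93), and apoptotic cell replicate 3 a peak at bases -1424 to -1292 from it (214.65, 95.5th percentile).

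Il1r2 encodes the decoy receptor. It lies at chr1:40084692-40125230 on the plus strand and was the one member with fewer peaks after LPS (0, 0 and 1) than without stimulation (0, 0 and 3). All 3 unstimulated peaks came from replicate 3, including 1 at 155 to 273 bp after the start (146.12). With apoptotic cells it had 1, 1 and 2 peaks, at 4 positions. The difference between LPS and unstimulated gave p = 1.0 (exact permutation test).

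**Figure D3:**
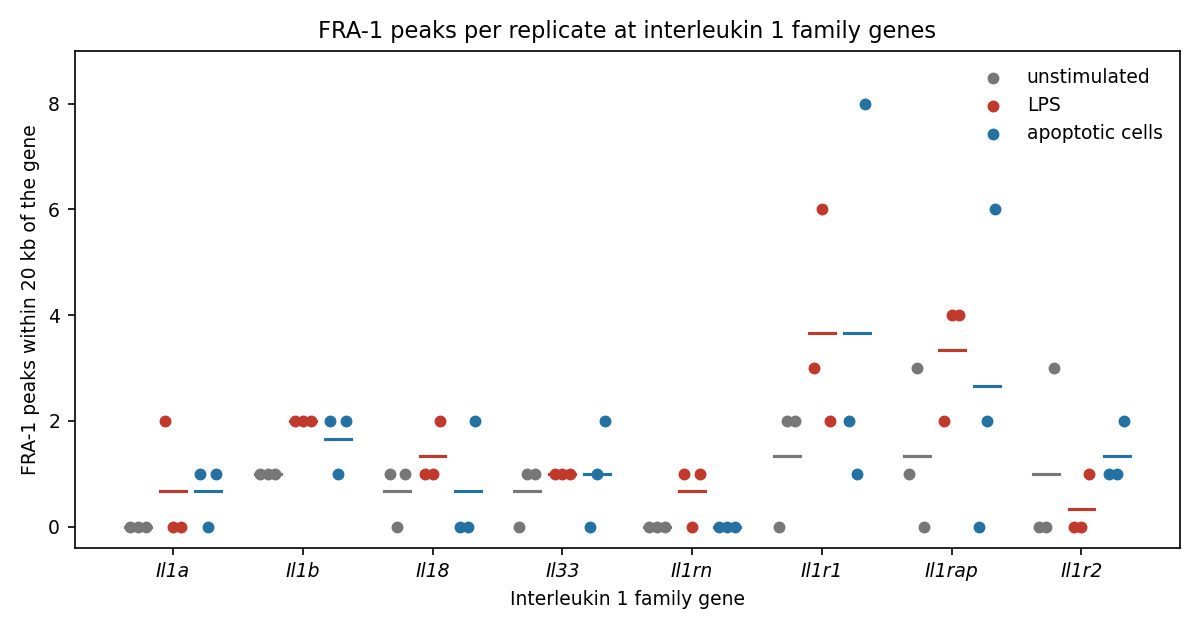
Number of FRA-1 peaks within 20 kb of each interleukin 1 family gene (y axis) in each replicate (points; grey unstimulated, red LPS, blue apoptotic cells), with the mean of 3 replicates as a line. Il1b, at 1, 1 and 1 against 2, 2 and 2, is the gene where unstimulated and LPS replicates do not overlap, and apoptotic cell replicate 3 gives the highest values at Il1r1 (8) and Il1rap (6).

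When a gain was defined as a region peaking in at least 2 replicates of one condition and 0 of the other, 3 of 8 members gained a region after LPS, namely Il1rn, Il1r1 and Il1rap. Over all protein-coding genes this share was 34.0%, so that the family's count was near the background. Each of these calls rested on LPS replicates 1 and 3, both of the narrow class, and gave p = 0.4 (Fisher's exact test, 2 of 3 against 0 of 3, two-sided). Without LPS replicate 1, 0 members were called (4.67% of all genes), and likewise without LPS replicate 3 (3.09%). By the rule of the call, unstimulated replicate 3, narrow as well, had no peak in these 3 regions. Apoptotic cell replicate 3, also narrow, had none either, as the call over apoptotic cells below requires. The part of the replicates' peak width in the calls was not tested. No member lost a region after LPS, as against 0.891% of all genes. Apoptotic cells gave 0 gains (8.12% of all genes) and 0 losses (1.53%) against unstimulated macrophages. The comparison of LPS with apoptotic cells used the same LPS replicates as the first. There, Il1rn, Il1r1 and Il1rap were called after LPS by the same 3 regions (29.1% of all genes), and 0 members in the opposite direction (2.73%).

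A region in at least 2 replicates of a condition was present at 1 member without stimulation (Il1b; 13.6% of all genes), at 4 after LPS (Il1b, Il1rn, Il1r1 and Il1rap; 48.7%) and at 1 with apoptotic cells (Il1b; 24.4%). A region in all 9 replicates, as at Il1b, was present at 4.92% of all genes. Gene length moved with these calls. With all genes ordered by length and split into 4 equal groups, the share called for LPS over unstimulated was 19.3% in the shortest, 28.0% and 34.1% in the next, and 54.7% in the longest, to which Il1r1 and Il1rap belong. Il1rn belongs to the group with 28.0%, with Il1a and Il1b.

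Of 24 tests of peaks per member (8 genes and 3 pairs of conditions), the order at Il1b was the single case without overlap, and the lowest adjusted p was 1.0 (exact permutation tests). No member had more peaks in every apoptotic cell replicate than in every unstimulated replicate (6.57% of all genes), in every LPS than in every apoptotic cell replicate (1.99%), or the reverse (1.28%).

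Summed over the family, the replicates had 3, 7 and 8 peaks without stimulation, 12, 14 and 13 after LPS, and 6, 6 and 23 with apoptotic cells. Every LPS replicate thus had more than every unstimulated replicate, whereas the apoptotic cell replicates spread on both sides. The means were 6.0 ± 2.65, 13 ± 1.0 and 11.7 ± 9.81 (SD, n = 3 each). Within the narrow class, unstimulated replicate 3 had 8 peaks, LPS replicates 1 and 3 had 12 and 13, and apoptotic cell replicate 3 had 23. Within the wide class, unstimulated replicates had 3 and 7, the LPS replicate 14, and both apoptotic cell replicates 6. Per 100 kb, the family had 0.860, 1.86 and 1.67 peaks in the 3 conditions, and the whole series had 0.913, 1.82 and 1.86. The family's increase after LPS therefore ran alongside that of the genome. With an equal number of top-scoring peaks taken from every replicate, the difference from unstimulated macrophages was 0 peaks per replicate after LPS and -1.33 with apoptotic cells. With all peaks, the mean for apoptotic cells rested on replicate 3, without which the difference from unstimulated macrophages was 0 peaks per replicate.

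**Figure D4:**
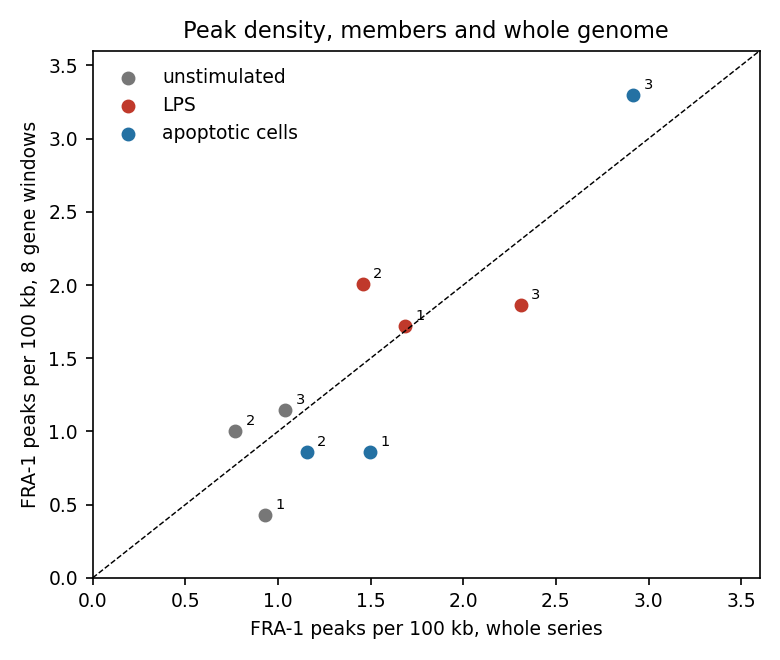
FRA-1 peaks per 100 kb in the windows of the 8 interleukin 1 family genes (y axis) against the whole series (x axis), 1 point per replicate, with equality as the dashed line. LPS replicate 2 lies farthest above the line in ratio (1.38) and unstimulated replicate 1 farthest below (0.463).

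By place, 50 of the 80 regions lay inside gene bodies, 21 past the 3′ end and 9 upstream. Within 1000 bp of a listed start were 4 of 92 peaks, at Il18, Il33, Il1rap and Il1r2, each in a different replicate. The deposited gene column named a member for 3 segments, all listed in 1 replicate. These were chr1:40221822-40222222 for Il1r1 (unstimulated replicate 2, score 122.02), the Il33 peak over the second start, and chr1:40097254-40097570 for Il1r2 (apoptotic cell replicate 2, 75.51).

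The wider pathway list held 31 other genes of cytokines, receptors, signalling proteins and the inflammasome, of which 30 were matched. After LPS, 7 of 30 gained a region (34.0% of all genes) and 0 lost one, and with apoptotic cells 3 of 30 gained one (8.12%). The 7 were Il1rl1, Il1rapl1 and Il1rapl2 among the receptors, Irak2, Irak3 and Tab3 among the signalling genes, and Nlrc4, an inflammasome sensor. Il1rapl1 and Il1rapl2 have gene bodies of 1375.012 and 1278.324 kb. The gains with apoptotic cells were at Il1rl1, Il1rapl1 and Il1rapl2.

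Il1rl1, which encodes the IL-33 receptor ST2, had a region listed in each of the 3 LPS replicates and in 0 unstimulated ones. This region, chr1:40405580-40406056, lies 716 to 1192 bp inside the gene body from its 5′ end. It scored 172.71, 121.21 and 255.01 in LPS replicates 1 to 3, and 77.85 and 123.49 in apoptotic cell replicates 1 and 3. These replicates were of both width classes, and the part of peak width was not tested. The coordinates are those of the merged region, not of each replicate's peak. A region in 3 of 3 LPS and 0 of 3 unstimulated replicates was found at 2.58% of all genes. The number of peaks per replicate at Il1rl1 was 0, 0 and 0 without stimulation, 5, 2 and 4 after LPS, and 2, 1 and 8 with apoptotic cells. Every LPS replicate (as at 9.87% of all genes) and every apoptotic cell replicate (6.57%) thus had more peaks there than every unstimulated replicate. By the same count, Il33 itself overlapped between conditions. Il1rl1 was singled out from the 30 matched genes by its peaks in stimulated and not in unstimulated replicates. The shares of all genes given beside it are therefore no test of it. Its gene body of 60.555 kb also falls in the longest of the 4 length groups, where 54.7% of genes were called for LPS over unstimulated.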

How the data were processed

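FRA-1 ChIP-seq libraries of 3 unstimulated, 3 LPS and 3 apoptotic cell samples were analysed. The 3 pooled inputs were not used here. Per the study's submitters' processing notes, BWA 0.7.14 and bedtools were used with mm10/GRCm38. The authors deposited 1 peak table per condition, with a score per replicate for each segment (-1 where there was no peak), called per replicate. The unit of the score was read from its range alone, and the peak caller behind these tables is not given in the sources used here. Neighbouring segments of equal score were rejoined into each replicate's peaks, and touching or overlapping peaks of all 9 replicates were merged into regions, with Python 3.11.15, pandas 2.3.3 and scipy 1.17.1. Segments were assigned within 20 kb of RefSeq gene bodies (GRCm38.p6). A gain needed a peak in at least 2 replicates of one condition and 0 of the other, counted over 21887 protein-coding genes. Differences of peaks and scores were tested by two-sided exact permutation tests, which relabel the samples freely, without regard to mouse. Their p-values rank the observed difference among these relabellings and refer to these samples only. The scripts were tested on simulated data. Scaled scores and peaks per 100 kb were added after the data had been seen. Named were all 8 members, genes near a shared peak, wider pathway genes with a region in at least 2 replicates of a condition and in no unstimulated replicate, and the 3 genes most like Il1r1 in peaks per replicate. Members and lists were chosen with earlier results of these data known. The design text speaks of 9 mice, whereas the records name each mouse in all 3 conditions. The record of 1 LPS sample states that its raw data are not available. Window, score minimum, number of top peaks, replicate rule and each replicate left out were varied. No exon or intron annotation was used, and the sequence of the region upstream of Il1b was not analysed here.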

Additional observations from a re-analysis of the deposited data

How the results depend on the processing

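Of 200 recomputed values, 157 were classed as unchanged, 39 moved and 4 changed sign. Unchanged meant within the replicate spread for peaks per replicate, within 1.5 times for counts of members, and merely of the same sign for Il1b score differences. Many of the unchanged counts were 0 in both settings. Shares of all genes stand in parentheses. With gene bodies alone or a 5 kb window, members present were 0 without stimulation (6.68% and 8.66%), 2 with LPS (24.5% and 32.5%), 0 with apoptotic cells (11.8% and 15.5%) and 0 in all replicates, since the regions of Il1b and Il1rn lie farther away, and gains after LPS were 2 (16.8% with gene bodies), without Il1rn. With 50 kb, 4 members gained a region after LPS (52.0%), and LPS exceeded apoptotic cells at 5 members (45.1%). At that window 7 were present after LPS (68.6%), and LPS minus unstimulated was 13.7 peaks per replicate, against 7. By the deposited gene column, gains (3.63%), LPS over apoptotic cells (2.90%) and members present in each condition (1.15%, 6.09% and 2.32%) and in all replicates (0.292%) were 0. With scores above the replicate's median, gains (19.0%) and LPS over apoptotic cells (16.7%) were 0, and members present were 1 after LPS (33.1%), 0 with apoptotic cells (15.5%) and 0 in all replicates (3.21%). With an equal number of top peaks per replicate, gains (16.3%) and LPS over apoptotic cells (14.9%) were 0, and members present were 1 after LPS (32.6%) and 0 in all replicates (3.83%). Requiring 3 of 3 replicates gave 0 gains (2.58%), 0 over apoptotic cells (1.54%) and 1 present after LPS (14.7%), and allowing 1 in the other condition also gave 0 (7.04%) and 0 (3.59%). For peaks per replicate, LPS minus unstimulated was 2.33 above the median, 0 with equal top peaks and -0.667 by the gene column. Apoptotic cells minus unstimulated, 5.67 in the text's setting, was 1 at scores of at least 100, 0.333 above the median, -1.33 with equal top peaks and -0.333 by the gene column. Leaving out 1 replicate gave 0 to 3 gains (3.09 to 42.5%), 0 to 3 over apoptotic cells (2.10 to 33.5%) and 1 to 4 present after LPS (15.2 to 47.6%). It also gave 5.5 to 8.0 peaks for LPS and 0 to 8.5 for apoptotic cells minus unstimulated. The Il1b score difference for LPS was 2.69 to 132 (53.0 with all) and reversed to -0.0684 on the scaled scores, and for apoptotic cells it was -130 to -19.9 (-84.3 with all). Dropping unstimulated replicate 3 and LPS replicate 2 together left 3 gains (41.2%). Beyond these constructions, causes were not tested. No paired analysis was possible because no column of the tables names a mouse. Without reads, depth limits on a missing peak are unknown.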

Other observations

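Many peaks of a replicate carried exactly the same score. The 10 commonest scores held 39.7 to 53.0% of the peaks of each replicate. In LPS replicate 3, 5839 peaks (9.28%) scored 136.35, among them those at Il33, Il1rap and Il1r2, and 2323 (3.69%) scored 226.93, among them those at Il1rap and Il1r1. Of the 92 member peaks, 37 (40.2%) carried one of the 10 commonest scores of their replicate. None of the 9 peaks at the region upstream of Il1b did, each of which shared its score with 2 to 424 peaks including itself. At the 3 regions gained after LPS, the peak of LPS replicate 1 carried such a score (136.4 at Il1rn and Il1rap, 131.8 at Il1r1). The peaks of LPS replicate 3 there did not.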
